A study of Mus musculus with 6 samples.

Results

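MicroRNAs (miRNAs) best known from striated muscle (miR-1, miR-133a, miR-133b, miR-206, miR-208 and miR-499) and from cartilage (miR-140 and miR-455) were read in mouse prefrontal cortex. The members were chosen by name from the raw table, ignoring species prefix, strand mark and copy number, which gave 14 of the 750 miRNA assays of the panel, 9 in pool A and 5 in pool B (the letter that ends the assay's identifier). No assay was named miR-208a, but hsa-miR-208 is the older name of that miRNA. The name of MMU-MIR-1-2-AS, from the strand opposite a miR-1 gene, does not reduce to miR-1, and that assay was undetermined in all 6 samples. This set of names was drawn up with earlier results of the same strain comparison in view. The strain differences of the members are therefore given as descriptions, without p-values.

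The study compared 3 mice of the inbred strain BTBR (genotype label BTBR T+ Itpr3tf/J), studied for its low sociability and repetitive grooming, with 3 wild type mice of the control strain C57BL/6J. All were untreated males aged 5 months, and the tissue was whole prefrontal cortex. Samples are numbered 1 to 3 in each strain and were taken as separate animals. The strain background field of the labels reads C57BL/6J for both groups, so strain was taken from the sample titles. The readout was the cycle threshold of a TaqMan PCR, the cycle at which the signal of an assay crosses a set level. A lower threshold stands for more RNA, 1 cycle corresponds to about a 2-fold difference, and 40 was read as undetermined. Each assay was run once per sample, so precision is limited by 1 reaction and by 3 mice per strain.

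A miRNA is cut from a hairpin as a duplex of a 5p and a 3p strand, and the loaded strand pairs with target mRNAs mainly through its seed, bases 2 to 8. In striated muscle, miR-1 and miR-133a are transcribed together, as are miR-206 and miR-133b. miR-1 and miR-206 share a seed and promote muscle differentiation, and the 3p strands of miR-133a and miR-133b are near-identical. The genes of miR-208a, miR-208b and miR-499 lie in myosin heavy chain genes of heart and slow muscle. miR-140 and miR-455 lie in Wwp2 and Col27a1, genes active in chondrocytes, and miR-140 is needed for normal growth of cartilage. None of them is best known from neurons.

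Of 11 mature strands looked up in RefSeq (mouse build GRCm38.p6), 8 were matched, with 7 different seeds. They place part of the members by hairpin, locus and seed. No match was found for miR-1a-3p, miR-133a-3p and miR-140-5p. The printed strands therefore do not show the seed shared by miR-1 and miR-206, the likeness of miR-133a and miR-133b, or both arms of miR-140. Each is printed 5′ to 3′ with the seed in capitals. The names of the miR-455 assays do not state the arm, so both arms are given.
mmu-miR-206-3p: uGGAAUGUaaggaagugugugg
mmu-miR-133b-3p: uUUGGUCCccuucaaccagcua
mmu-miR-208a-3p: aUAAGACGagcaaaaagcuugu
mmu-miR-208b-3p: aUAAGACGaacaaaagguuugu
mmu-miR-499-5p: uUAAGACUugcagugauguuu
mmu-miR-140-3p: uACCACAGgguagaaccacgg
mmu-miR-455-5p: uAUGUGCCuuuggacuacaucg
mmu-miR-455-3p: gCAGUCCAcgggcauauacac

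The miR-208a and miR-208b strands share 1 seed. On the plus strand, miR-206-3p lies at chr1:20679055-20679076 and miR-133b-3p at chr1:20682834-20682855, and the 2 hairpin genes are 3686 bases apart. The Mir206 gene lies within the span of the long noncoding RNA gene Lincmd1, and so does Mir133b. On chromosome 2, Mir1a-1 and Mir133a-2 lie 9254 bases apart within the host transcript Mir1a-1hg, and both miRNAs have a further copy on chromosome 18. The 3p strand of miR-140 lies at chr8:107551288-107551308 within Wwp2. Both strands of miR-455 lie within Col27a1, at chr4:63256867-63256888 for 5p and chr4:63256904-63256924 for 3p. The heart-type genes are Mir208a within Myh6, Mir208b within Myh7 and Mir499 within Myh7b.

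The raw table had between 289 and 404 assays per sample with a reading from 10 to below 40 cycles, more in each BTBR sample (347 to 404) than in any C57BL/6J sample (289 to 305). BTBR replicate 3 was closer to the other strain than to its own, with r = 0.945 to 0.966 against the C57BL/6J samples and 0.938 and 0.918 against BTBR replicates 1 and 2 (189 assays with 6 normalized values). For each member read in all 6 samples, at least 1 log2 change is given with and without it. Of the assays fixed as neuron markers, 6 of 10 were read in all 6 samples and none was undetermined throughout, the earliest reading being 10.62 cycles. Of the 10 striated muscle assays, 4 were read in all samples and 4 in none, and all 4 cartilage assays were read in all samples. Over the panel, 237 of 750 assays were read in all samples. Such counts of readings do not by themselves give the identity of a tissue.

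Among the 14 members, 8 were read in all 6 samples, 2 in some and 4 in none. The 4 without any reading were both miR-208 assays (hsa-miR-208 and hsa-miR-208b) and the passenger strands rno-miR-1# and mmu-miR-133a#. Over the whole panel 38.4% of assays had no reading, 48.3% in pool B and 28.6% in pool A. The slow muscle and heart assay mmu-miR-499 had a single late reading, 30.24 cycles in C57BL/6J replicate 1. Readings of the other members lay between 20.07 and 27.34 cycles, against a median of 22.20 to 23.27 cycles over the assays detected in each sample. Thresholds of different assays are not levels on a common scale, since each assay amplifies with its own efficiency.

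**Figure D1:**
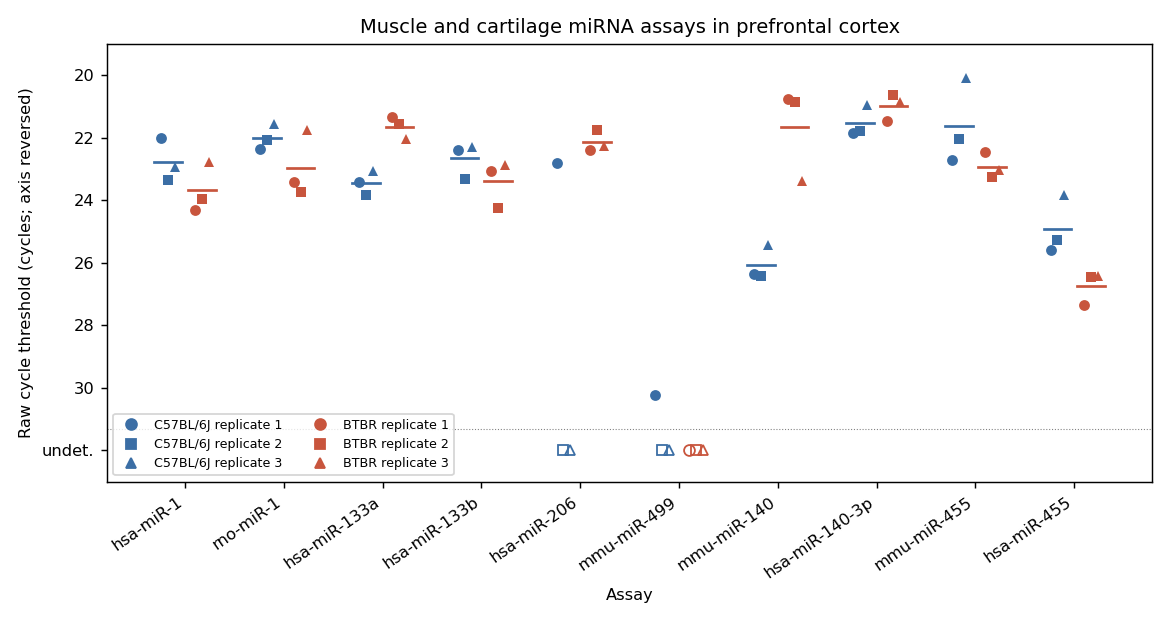
Raw cycle thresholds (y axis in cycles, reversed so that more RNA is up) of the 10 member assays with any reading, by sample. Filled symbols are readings, open symbols undetermined reactions (drawn below the dotted line, not to scale), shapes the replicates and bars the mean of the readings where there were 2 or more. The BTBR readings of mmu-miR-140 and hsa-miR-133a lie above all of C57BL/6J, those of hsa-miR-455 below, and hsa-miR-206 is undetermined in 2 C57BL/6J samples.

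miR-1, among the most abundant miRNAs of heart and skeletal muscle, has 2 assays here, both in pool A. The raw thresholds of hsa-miR-1 were 22.02, 23.35 and 22.94 cycles in C57BL/6J and 24.30, 23.94 and 22.78 cycles in BTBR. Those of rno-miR-1 were 22.36, 22.08 and 21.56 in C57BL/6J and 23.43, 23.74 and 21.76 in BTBR. In both assays BTBR replicates 1 and 2 were later than every C57BL/6J sample, and BTBR replicate 3 lay within the C57BL/6J range. The mean raw delay in BTBR was 0.902 cycles for hsa-miR-1 and 0.977 cycles for rno-miR-1. On the authors' quantile-normalized values the log2 changes (BTBR minus C57BL/6J) were -2.50 (standard error 0.75) for hsa-miR-1 and -2.54 (0.83) for rno-miR-1. With the global mean of a sample (the mean of the 237 assays that every sample read) subtracted from its raw thresholds, they were -1.30 (standard error 0.72) and -1.37 (0.70). Without BTBR replicate 3 the 2 changes were -3.24 and -3.39 on the authors' values, and -1.88 and -2.12 on the global mean scale.

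The 2 miR-1 assays gave the same strain difference within their error. Within a sample, rno-miR-1 minus hsa-miR-1 was 0.337, -1.27 and -1.38 cycles in C57BL/6J and -0.871, -0.202 and -1.02 in BTBR. The strain means were -0.773 ± 0.963 and -0.697 ± 0.435 cycles (SD, n = 3 each), so that the assays' log2 changes differed by -0.08 with a standard error of 0.61. Over the 6 samples their thresholds on the global mean scale had a Pearson r of 0.827, a description over 6 points that share 2 strains. C57BL/6J replicate 1 was the only sample in which the rat assay read later than the human one. The sources used here do not say how far each assay reads the other's target, nor how far the miR-133a and miR-133b assays do.

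miR-133a and miR-133b differed between the strains in opposite directions on raw thresholds. miR-133a restrains proliferation and smooth muscle genes in the heart. Its assay hsa-miR-133a (pool A) had raw thresholds of 23.40, 23.83 and 23.06 cycles in C57BL/6J and 21.33, 21.57 and 22.03 in BTBR. All 3 BTBR samples were earlier than all C57BL/6J samples, by 1.79 cycles on average (23.43 ± 0.390 against 21.64 ± 0.358, SD, n = 3 each). For hsa-miR-133b (pool A), whose gene neighbours miR-206, the thresholds were 22.39, 23.31 and 22.28 in C57BL/6J and 23.07, 24.24 and 22.87 in BTBR. Here the groups overlapped and BTBR was 0.732 cycles later.

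Within a sample, hsa-miR-133a minus hsa-miR-133b was 1.01, 0.524 and 0.774 cycles in C57BL/6J and -1.74, -2.67 and -0.834 in BTBR. The sign of this difference separated the strains in all 6 samples, with means of 0.770 ± 0.245 and -1.75 ± 0.918 cycles (SD, n = 3 each). A difference taken within a sample and a pool does not depend on the centring of the thresholds. The log2 change of miR-133a thus exceeded that of miR-133b by 2.52 with a standard error of 0.55 on raw thresholds, by 2.52 (standard error 0.61) on the authors' values, and by 2.98 on raw thresholds without BTBR replicate 3. This pair was picked out after its values were seen, and its difference is a description. On the authors' values the log2 change of hsa-miR-133a was 0.25 (standard error 0.45), and the strains overlapped. That value was -0.08 without BTBR replicate 1 and -0.004 without C57BL/6J replicate 2. On the global mean scale it was 1.39 (standard error 0.39), without overlap. For hsa-miR-133b the values were -2.27 (0.79) and -1.13 (0.66), the first becoming -1.43 without BTBR replicate 2. Without BTBR replicate 3 the changes on the global mean scale were 1.45 for hsa-miR-133a and -1.52 for hsa-miR-133b.

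**Figure D2:**
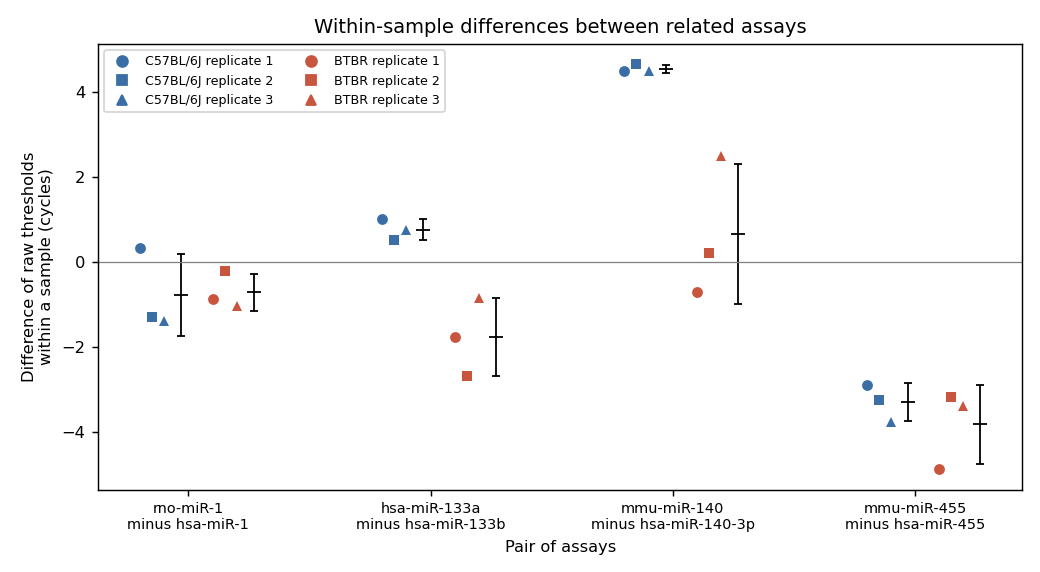
Difference of raw cycle thresholds within each sample (y axis, cycles) for 4 pairs of related assays. Points are samples, and the black marks give the mean and SD of 3 samples per strain. For miR-1 and miR-455 the strains overlap, for miR-133 all C57BL/6J points are above 0 and all BTBR points below, and for miR-140 the C57BL/6J points lie at about 4.5 cycles and the BTBR points between -0.689 and 2.51.

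miR-206, the skeletal muscle relative of miR-1, was detected or not rather than graded. The assay hsa-miR-206 (pool B) read 22.80 cycles in C57BL/6J replicate 1 and was undetermined in C57BL/6J replicates 2 and 3, while BTBR read 22.38, 21.76 and 22.26. The 1 C57BL/6J reading came close to the BTBR readings: on the global mean scale it lay 0.183 cycles from the sample mean against 0.405, 0.300 and 0.133 in BTBR. The authors' deposited table gives miR-206 as 2281-fold higher in BTBR, a fold from mean thresholds in which 40 counts as a value. With readings alone the change on the authors' values was -0.77 (standard error 0.56, with 1 C57BL/6J value), while on raw thresholds the BTBR mean was 0.668 cycles earlier than the 1 C57BL/6J reading. The sign of the difference thus changed with the counting of undetermined reactions and with the scale. On the panel, 16 assays were read in all BTBR samples and exactly 1 C57BL/6J sample, and 28 in all BTBR and no C57BL/6J sample, against 7 read in all C57BL/6J samples and at most 1 BTBR sample. In pool B, which holds hsa-miR-206, these counts were 6, 2 and 5, and in pool A they were 10, 26 and 2. The neighbouring gene's assay, hsa-miR-133b, was read in every sample of both strains.

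Among the cartilage miRNAs, mmu-miR-140 had the largest raw strain difference of the members, 4.42 cycles. Of the 270 assays tested on raw thresholds, 94.4% had a lower log2 change than this assay, and others on the panel had a higher one. On the authors' values the change of mmu-miR-455 was larger in size (-2.83 against 2.71). Raw thresholds of mmu-miR-140 (pool A), named as the 5p arm in older usage, were 26.37, 26.44 and 25.44 cycles in C57BL/6J and 20.77, 20.85 and 23.37 in BTBR. All BTBR samples were earlier than all C57BL/6J samples, with BTBR replicate 3 in between the other BTBR samples and C57BL/6J. Among all assays detected in a sample, ordered from early to late, this assay lay at the 71.3 to 76.4 percentile in C57BL/6J and at the 34.4, 41.1 and 55.0 percentile in BTBR. These percentiles are over different sets, 289 to 305 detected assays in C57BL/6J and 347 to 404 in BTBR, so part of the shift can come from the sets. On the authors' values the difference was 6.52-fold, and the log2 change on the global mean scale was 4.02 with a standard error of 0.69. Without BTBR replicate 3 it was 4.74 on the global mean scale and 3.39 on the authors' values. Centring on the mean of the U6 spots gave 3.22 and on the other endogenous controls (snoRNA135, snoRNA202, U87 and Y1) 3.09.

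The other arm of the same hairpin did not follow. The assay hsa-miR-140-3p (pool B) read 21.86, 21.77 and 20.95 cycles in C57BL/6J and 21.46, 20.64 and 20.86 in BTBR. These groups overlapped, and the mean difference was 0.538 cycles, earlier in BTBR. On the authors' values the change had the other sign, -0.90 with a standard error of 0.38, and on the global mean scale it was 0.14 (0.35). On the authors' values every BTBR sample was later than every C57BL/6J sample. Both changes lay above the median of all assays tested, -1.13 for the authors' scale and -0.40 for the global mean. Without BTBR replicate 3 the changes of hsa-miR-140-3p were -1.11 on the authors' values and -0.05 on the global mean scale. Within a sample, mmu-miR-140 minus hsa-miR-140-3p was 4.51, 4.67 and 4.497 cycles in C57BL/6J, a spread of 0.0935 (SD, n = 3), and -0.689, 0.214 and 2.51 cycles in BTBR (0.678 ± 1.65). The arms thus differed in log2 change by 3.88 with a standard error of 0.95 on raw thresholds, by 4.79 without BTBR replicate 3, and by 3.65 (1.04) when each pool was centred on its own mean. The pool is a difference between these assays as well. Over assays read in all samples, the median raw difference between strains was 0.106 cycles in pool A and -0.0817 cycles in pool B. The mean differences (BTBR minus C57BL/6J) were -0.476 cycles in pool A and -0.249 cycles in pool B. In pool A each BTBR sample read more assays than any C57BL/6J sample, while in pool B the counts overlapped. Of the assays read in all BTBR samples and no C57BL/6J sample, 26 were in pool A and 2 in pool B. The part of the pool in the difference between the arms was not tested beyond centring each pool on its own mean.

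The assays whose pattern came closest to mmu-miR-140 over the 6 samples, among 229 other assays read in all of them, were hsa-miR-181a (Pearson r = 0.991), hsa-miR-574-3p (0.981) and mmu-miR-582-5p (0.978), each in pool A. Their raw means were 29.40, 26.09 and 32.53 cycles in C57BL/6J and 21.78, 23.85 and 28.46 in BTBR. In all 3, BTBR replicate 3 lay between the other BTBR samples and C57BL/6J, as it did for mmu-miR-140. For miR-181a it read 24.84 cycles, against 20.05 and 20.44 in BTBR replicates 1 and 2. For hsa-miR-140-3p the closest were hsa-miR-29b-2# (0.919), mmu-miR-540 (0.870) and mmu-miR-376b# (0.834). Between the arms themselves r was 0.0248. These correlations describe 6 points that share 2 strains and the same centring.

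Both miR-455 assays read later in BTBR. miR-455 sits in a collagen gene of cartilage. The assay mmu-miR-455 (pool A) read 22.72, 22.04 and 20.07 cycles in C57BL/6J and 22.47, 23.27 and 23.03 in BTBR, with 1 BTBR sample inside the C57BL/6J range. The assay hsa-miR-455 (pool B) read 25.59, 25.28 and 23.83 in C57BL/6J and 27.34, 26.45 and 26.41 in BTBR, without overlap. In each assay the earliest reading was that of C57BL/6J replicate 3. The mean raw delays in BTBR were 1.31 and 1.83 cycles, and the global mean scale gave log2 changes of -1.70 (standard error 0.65) for mmu-miR-455 and -2.22 (0.48) for hsa-miR-455. Without BTBR replicate 3 these changes were -1.79 and -2.52. Within a sample the 2 assays differed by -2.87, -3.24 and -3.76 cycles in C57BL/6J and by -4.87, -3.18 and -3.39 in BTBR, so their log2 changes differed by 0.52 with a standard error of 0.59.

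In the authors' deposited table hsa-miR-455 is 0.000254-fold in BTBR relative to C57BL/6J. This ratio rests on BTBR replicates 1 and 2 standing at 40 in the normalized table although the raw table has 27.34 and 26.45 cycles for them, since normalized values above 29.19 cycles were set to 40. With the 2 readings kept, the change on rebuilt quantiles was -6.12 (standard error 1.16). On raw thresholds it was -1.83 (0.58), and the 7 scalings of raw thresholds gave changes between -1.83 and -3.16. For mmu-miR-455, which kept all its values, the authors' deposited table gives 0.141-fold, equal to the log2 change of -2.83 (standard error 0.79) fitted on their values. That change was -2.15 without C57BL/6J replicate 3, the sample with its earliest reading.

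**Figure D3:**
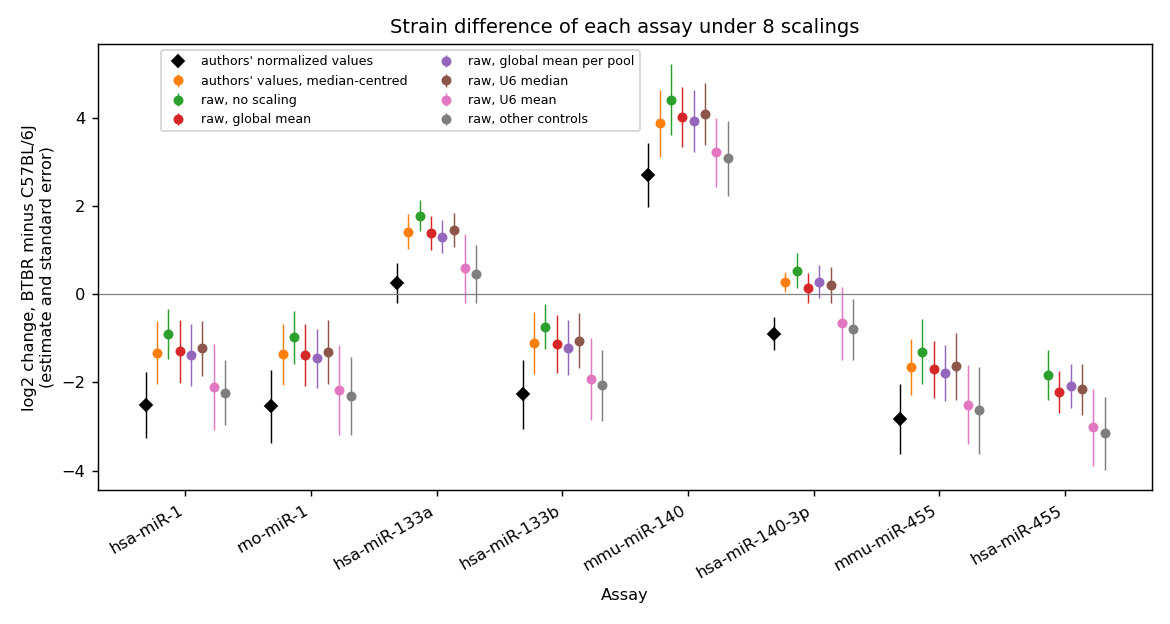
Log2 change (BTBR minus C57BL/6J, y axis) of 8 member assays under 8 scalings, with limma's standard error as bars. hsa-miR-455 has no value on the authors' normalized values because only 1 BTBR sample is left there. Changes of hsa-miR-1, rno-miR-1, hsa-miR-133b and both miR-455 assays are below 0 under every scaling drawn, those of mmu-miR-140 and hsa-miR-133a above 0, and hsa-miR-140-3p lies on either side.

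Across the members, the authors' scale shifted most values downward together with the panel. In the limma fit on the authors' values, 7 members could be tested, of which 1 (mmu-miR-140) was called higher and 2 (hsa-miR-1 and mmu-miR-455) lower at an adjusted p under 0.05. Over all 231 assays tested, 36.8% were called, 1.3% higher and 35.5% lower, and since this comparison was known when the members were chosen, nothing is read from their count. Their median change was -2.27, beside -1.13 for all assays. On the global mean scale limma called 0.0% of 270 assays and none of the 8 members tested, with 71 of all assays at an unadjusted p under 0.05. The members' median there was -1.21 beside -0.40. Without BTBR replicate 3, 4 members were called lower and 1 higher on the authors' values, beside 41.5% and 6.13% of 212 assays. Without C57BL/6J replicate 1 mmu-miR-455 alone among the members was called, lower, beside 29.1% of 220 assays. Without BTBR replicate 1 or 2, or C57BL/6J replicate 2 or 3, 0 members were called in either direction. In that order, the panel had 0 of 212, 8 of 213, 3 of 212 and 0 of 221 assays called. On the global mean scale without BTBR replicate 3, an alternative chosen after seeing the data, 1 member was called higher (mmu-miR-140) and 2 lower (rno-miR-1 and hsa-miR-455), beside 8.91% higher and 13.2% lower of 258 assays.

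On raw thresholds, 2 of 8 members (mmu-miR-140 and hsa-miR-133a) were earlier in every BTBR sample than in every C57BL/6J sample, and 1 (hsa-miR-455) was later. Over the 237 assays read in all samples these shares were 14.3% earlier and 18.1% later. On the authors' values, 5 of 7 members were later in every BTBR sample and 1 earlier, beside 57.7% and 1.59% of 189 assays. The 7 members tested on both scales had the same order by change on each. From lowest to highest on the global mean scale it ran hsa-miR-455, mmu-miR-455, rno-miR-1, hsa-miR-1, hsa-miR-133b, hsa-miR-140-3p, hsa-miR-133a and mmu-miR-140. Neighbours among the first 5 differed by less than the larger of their standard errors.

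**Figure D4:**
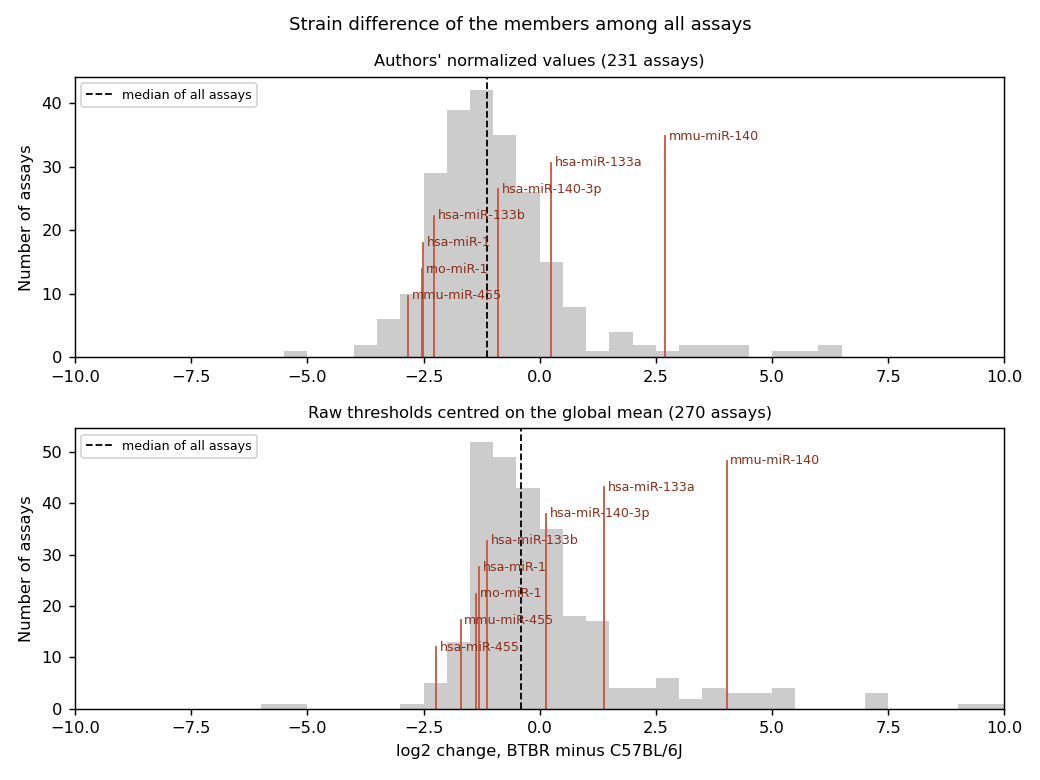
Histograms of the log2 change (BTBR minus C57BL/6J, x axis) over all assays tested (y axis, number of assays) on the authors' values and on the global mean scale. Red lines mark the members, with heights that serve the labels only, and dashed lines the median of all assays, -1.13 and -0.40. mmu-miR-140 lies at the right of both panels, and hsa-miR-1, rno-miR-1, hsa-miR-133b and mmu-miR-455 lie left of the median in both.

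Other miRNAs active in muscle, cartilage and vessel walls give the setting of these values. Of 24 assays of other muscle-active miRNAs, 8 were tested on the authors' values, 0 were called higher and 4 lower, with a median change of -1.13, that of all assays. The 2 with the largest changes did not pass: hsa-miR-24 (log2 change 6.09, standard error 3.88) and hsa-miR-181a (5.05, 1.77), both fitted without C57BL/6J replicate 1, which stands at 40. Of 23 assays of other cartilage-active miRNAs, 8 were tested, 0 were called higher and 3 lower, with a median of -1.003. The largest changes there were those of mmu-miR-193b (3.19, standard error 1.88, not called) and hsa-miR-199a-3p (-2.92, standard error 0.28, called lower). Of 18 mural and mesenchymal assays, 4 were tested, 0 were called higher and 3 lower, with a median of -2.26. Its largest changes were miR-199a-3p again and hsa-miR-145, a marker of smooth muscle (-2.47, standard error 0.77, not called, with its undetermined reaction in BTBR replicate 1 left out). On the global mean scale 0 assays of these lists were called.

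Markers of vessel wall and blood were read in part, on a panel of which each BTBR sample read more assays (347 to 404 of 750) than any C57BL/6J sample (289 to 305). Of the 10 mural and mesenchymal marker assays, 4 were read in each C57BL/6J sample and 5 to 7 in each BTBR sample, and 3 (hsa-miR-199a, hsa-miR-214# and mmu-miR-145#) in none. Their summed level, in units of the level at the sample's mean threshold, was 328 to 602 in C57BL/6J and 2.69 to 116 in BTBR, a sum dominated by miR-145, which was undetermined in 1 BTBR sample. Of 9 blood assays, 2 to 5 were read in C57BL/6J and 5 to 7 in BTBR, with summed levels of 279 to 657 and 144.2 to 524, and 2 of them (the pool B assay of hsa-miR-223 and the one for the erythroid miR-144) were at 0 throughout. The summed level of the striated muscle members was 2.38 to 5.35 in C57BL/6J and 2.26 to 4.496 in BTBR, and that of the cartilage members 2.69 to 5.81 and 3.40 to 4.48, so these sums overlapped between strains. All of these summed levels treat the assays as amplifying alike, which was not measured, and an undetermined reaction adds 0 to them. Some other lists were likewise read in more assays in BTBR. For choroid plexus and ciliated cells, 2 of 8 assays were read in each C57BL/6J sample against 4 to 5 in BTBR. For other muscle-active miRNAs the counts were 10 of 24 against 12 to 16. Counts overlapped for neuron (7 to 9 of 10 against 8 to 9) and oligodendrocyte assays (4 to 5 of 6 against 5 to 6). The striated muscle members had 4 to 6 of 10 against 5, and the cartilage members 4 of 4 in every sample. The part of vessel and blood cells in the members' values was not tested, and fewer cells of a type cannot be told apart from less RNA per cell in such bulk samples.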

How the data were processed

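Prefrontal cortex RNA of 3 mice per strain was purified on columns, and 100 ng (RNA integrity number 9) was reverse transcribed, pre-amplified and run on the TaqMan OpenArray rodent panel, per the labels' protocols. The sources used here do not say how samples were laid out over arrays. The authors deposited raw cycle thresholds, quantile-normalized thresholds of 306 assays per the file headers, and a table with a ratio (fold), its log2 difference of thresholds, a test statistic (a score) and p-values, the last 2 of which were not used. The normalized values below 40 of these 306 assays were rebuilt from the raw table to within 3.33e-09 cycles. Readings under 10 were set to 40, the 340 assays read in at least 3 samples were kept, and quantiles were equalized with 40 as a value. The step from 340 to 306 assays was not rebuilt. Values above 29.19 cycles stand at 40, and 77 such cells had a raw reading.

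For the strain comparison, 40 was treated as missing, thresholds were multiplied by -1, and assays with at least 2 values per strain were fitted with lmFit and eBayes of limma 3.58.1 (R 4.3.3), Benjamini-Hochberg adjusted over all assays at 0.05. The fit was tested on simulated data with independent noise in each assay. That setting held no shift common to a whole sample, so it does not test how the fit behaves under such shifts. The numbers were not taken as pairs in the main fit. Same-numbered samples deviated together at r = 0.083, 0.421 and -0.001, which does not settle whether they are pairs, so the replicate number as a block was an alternative. With the block the standard error of hsa-miR-133b was 0.47 instead of 0.79, and that of mmu-miR-140 was 0.77 instead of 0.73. Members, lists and tests were chosen with earlier results of these data known. Every member is accounted for, non-members were named by the highest correlation or the 2 largest changes of a list, and miR-133a against miR-133b was added after its values were seen. Alternatives covered scaling, cells at 40, detection filters, the block and each sample left out.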

Additional observations from a re-analysis of the deposited data

How the results depend on the processing

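The count of members called depended on the setting. The 1 call of a higher and 2 calls of a lower level became 0 and 0 on raw thresholds with any of the 7 scalings tried (none, global mean, global median, global mean within pools, mean or median of U6, other controls), with each sample's median removed from the authors' values, with 40 kept as a value and with the replicate block. With late readings kept 1 was lower (84 of 270 assays over the panel), and with 3 values required per strain 4 were lower (81 of 189). Leaving out 1 sample gave 0 to 1 higher and 0 to 4 lower. The cause was not tested. Over the panel 85 calls became 96 of 306 with 40 kept as a value, 32 with the block, 0 to 2 under the scalings, and 0 to 101 with 1 sample left out (leaving out BTBR replicate 1 gave 0, BTBR replicate 2 gave 8, C57BL/6J replicate 2 gave 3 and C57BL/6J replicate 3 gave 0). The change of hsa-miR-140-3p, -0.90, had the other sign on the global mean scale (0.14), within pools (0.29), with the U6 median (0.21), without scaling (0.54) and with the authors' values centred (0.28). That of hsa-miR-133a, 0.25, ranged from -0.0761 (without BTBR replicate 1) to 1.787 (no scaling) over all alternatives, reached 0.5608 at most with 1 sample left out (BTBR replicate 2), and was -0.0041 without C57BL/6J replicate 2. For the other 5 tested members the sign held under all alternatives, from 2.02 to 4.74 for mmu-miR-140, -3.39 to -0.98 for rno-miR-1, -3.24 to -0.90 for hsa-miR-1, -2.77 to -0.73 for hsa-miR-133b and -3.36 to -1.31 for mmu-miR-455. The difference between the miR-140 arms ranged from 2.83 to 4.79, that between miR-133a and miR-133b from 1.99 to 3.03, and that between the miR-1 assays from -0.60 to 0.28. Members read in at least 1 sample numbered 9 in BTBR and 8 to 10 in C57BL/6J. With 1 reaction per assay, an undetermined result has no counting limit.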
